A study of Homo sapiens with 4 samples.

Results

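The E2F and retinoblastoma family was taken as 10 genes chosen by gene name, a rule that used no measured value. Earlier results of these data were known when the family was chosen. They were the E2F transcription factors E2F1, E2F2, E2F3, E2F4, E2F5, E2F7 and E2F8 and the pocket proteins RB1, RBL1 and RBL2. All 10 had values among the 28412 genes of the expression table, and all 10 were among the 13300 genes tested. The 4 RNA-seq libraries came from the human leukemia cell line that the labels name NB4, a line derived from acute promyelocytic leukemia. In 2 libraries the cells carried the control shRNA vector (sh-NC), which the labels describe as untreated controls. In the other 2 the cells carried a lentiviral shRNA vector against LDB1 (sh-LDB1), an adaptor protein that holds LIM-domain and GATA transcription factor complexes together at enhancers. The labels do not say which of the designed shRNAs was sequenced, or whether the libraries of a group came from separate cultures, so p-values measure only the spread between these libraries, which may be technical.

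E2F proteins bind the promoters of genes needed to enter and complete S phase, mostly as dimers with a DP protein. E2F1, E2F2 and E2F3 can activate these genes, E2F4 and E2F5 repress them together with a pocket protein, and E2F7 and E2F8 repress them without a DP partner or a pocket protein. RB1, RBL1 (p107) and RBL2 (p130) bind E2Fs until cyclin-dependent kinases phosphorylate them. In red cell development RB1 and the E2Fs are known for their part in the last divisions before the cell cycle ends.

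LDB1 itself stood at 135 and 120 FPKM with sh-NC, against 10.2 and 9.47 FPKM with sh-LDB1, so the sh-LDB1 mean was 7.73% of the sh-NC mean. FPKM counts fragments per kilobase of a gene relative to the size of the library, so levels of different genes can be set side by side. The recovered depth was 14507182 to 16811100 reads per library. The defining markers of the labelled cell type were low or at 0. ELANE was at 0 in 3 of the 4 libraries and at 0.182 FPKM in the fourth, MPO and CTSG were not analysed here, and the 6 promyelocytic markers with values summed to 10.6 to 11.5 FPKM with sh-NC, against 29.4 to 32.0 FPKM with sh-LDB1. By limma at an adjusted p-value below 0.05, 3 of the 5 promyelocytic markers tested rose and 0 fell. Among these 3, LYZ had a mean of 5.73 FPKM with sh-NC, against 19.2 FPKM with sh-LDB1. The 12 erythroid markers, among them globins, GATA1 and KLF1, summed to 4158 and 4345 FPKM with sh-NC, against 389 and 353 FPKM with sh-LDB1. All 12 fell by the same rule. Of all genes tested, 29.9% rose and 37.4% fell by it. The markers thus go against the labelled cell type, and the libraries are called by their labels below. The erythroid markers fell between the same groups as every comparison that follows, and their part in the results was not tested. In bulk RNA, fewer cells of a type and less RNA per cell cannot be told apart.

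RefSeq promoter windows of 300 bases, from 250 before to 50 after the annotated start, are reported for 8 of the 10 genes. They were 10 windows in all on GRCh38.p14. E2F8 had no window, and any window of E2F5 was left out of the member search and is not reported here. The windows were searched on both strands for the E2F motifs TTTCCCGC, TTTCGCGC, TTTGCCGC and TTTGGCGC, of which no 2 overlapped in any window printed here. E2F1, E2F2, E2F3 and RBL1 held at least 1 match, and they are printed to show where these letters lie next to the start. The letters in capitals are the matches, read 5′ to 3′ on the strand of the gene, so that a match on the opposite strand appears as its reverse complement.
E2F1: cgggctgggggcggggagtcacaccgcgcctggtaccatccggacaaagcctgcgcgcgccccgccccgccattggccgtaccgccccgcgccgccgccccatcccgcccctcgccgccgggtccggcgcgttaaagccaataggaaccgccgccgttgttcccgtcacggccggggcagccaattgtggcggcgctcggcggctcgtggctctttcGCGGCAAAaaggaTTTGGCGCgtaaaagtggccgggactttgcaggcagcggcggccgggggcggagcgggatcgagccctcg
E2F2: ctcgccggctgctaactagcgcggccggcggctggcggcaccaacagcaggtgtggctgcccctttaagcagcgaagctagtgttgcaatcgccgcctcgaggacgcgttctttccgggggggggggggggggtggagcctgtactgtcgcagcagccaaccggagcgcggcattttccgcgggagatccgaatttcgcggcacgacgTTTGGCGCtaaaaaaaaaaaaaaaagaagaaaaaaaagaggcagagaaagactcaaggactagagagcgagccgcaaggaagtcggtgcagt
E2F3: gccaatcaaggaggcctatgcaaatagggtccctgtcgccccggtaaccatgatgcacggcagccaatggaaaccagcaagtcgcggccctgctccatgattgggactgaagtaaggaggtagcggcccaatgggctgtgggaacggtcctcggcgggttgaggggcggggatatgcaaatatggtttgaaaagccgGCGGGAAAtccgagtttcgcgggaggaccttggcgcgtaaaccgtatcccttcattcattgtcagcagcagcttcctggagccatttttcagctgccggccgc
RBL1: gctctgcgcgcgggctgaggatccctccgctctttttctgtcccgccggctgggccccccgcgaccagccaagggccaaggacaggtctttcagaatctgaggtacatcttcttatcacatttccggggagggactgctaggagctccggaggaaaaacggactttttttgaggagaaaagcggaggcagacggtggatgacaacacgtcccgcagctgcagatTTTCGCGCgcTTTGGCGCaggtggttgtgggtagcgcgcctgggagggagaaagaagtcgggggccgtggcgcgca
The E2F1 window lies on the minus strand at chr20:33686336-33686635, with its matches beginning 33 and 20 bases before the start. The E2F2 window is on the minus strand at chr1:23531184-23531483, with its match 42 bases before the start. The E2F3 window shown is on the plus strand at chr6:20401629-20401928, with its match 53 bases before the start. The RBL1 window is on the minus strand at chr20:37095948-37096247, with matches 26 and 16 bases before the start.

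E2F7 had no match, and its window is printed as the contrast, from the minus strand at chr12:77065520-77065819.
E2F7: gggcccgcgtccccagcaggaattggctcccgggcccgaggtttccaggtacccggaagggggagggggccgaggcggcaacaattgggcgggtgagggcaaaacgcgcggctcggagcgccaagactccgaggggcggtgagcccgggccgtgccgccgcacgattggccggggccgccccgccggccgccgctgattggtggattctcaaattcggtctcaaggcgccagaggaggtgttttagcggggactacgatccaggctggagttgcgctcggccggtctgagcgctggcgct
No match was found in the windows of E2F4, RB1 and RBL2 either, nor in the second window of E2F3. The only RB1 window began at a RefSeq start 172706 bases downstream of the annotated start of the gene, so the main RB1 promoter was not examined. A match is a description of letters and not a binding site. An E2F motif stood in 3.31% of all 35116 windows. Among the 8399 tested genes with a window, 581 (6.92%) held a match. Of these, 53.7% fell in sh-LDB1 at an adjusted p-value below 0.05, against 40.5% of the 7818 without. Their median log2 fold changes were -0.30 and -0.07. All 4 members with a match in the windows reported here fell. Of the 4 with a reported window and no match, RBL2 fell, E2F7 and RB1 rose, and E2F4 did not pass the test.

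**Figure D1:**
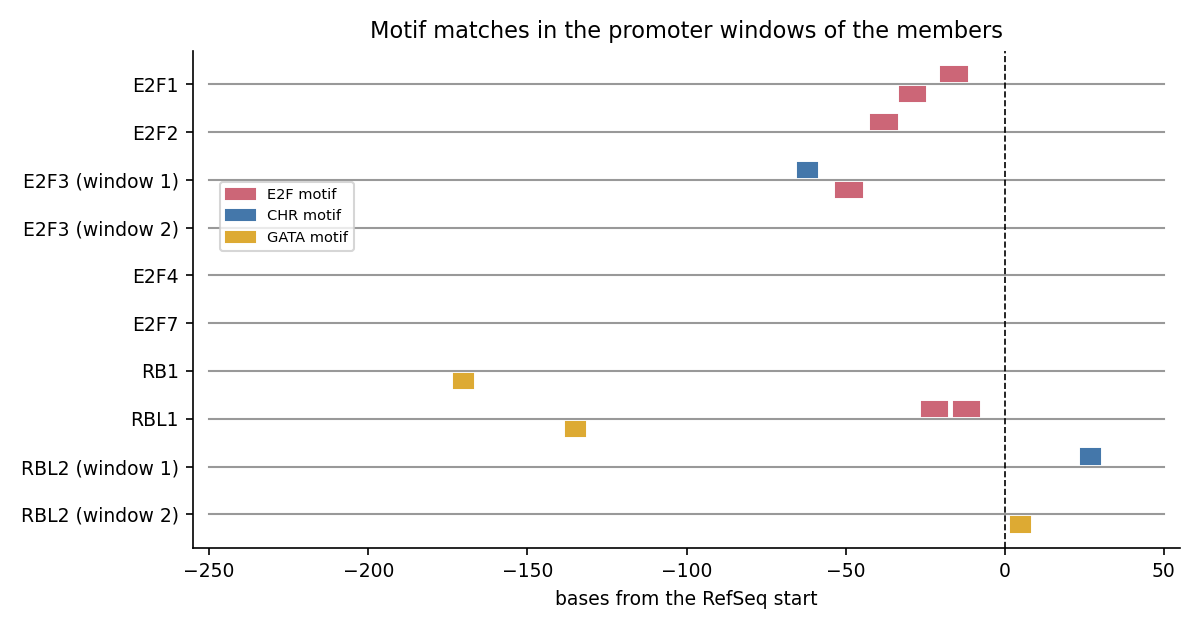
Position of motif matches in the 10 promoter windows of 8 members, in bases from the RefSeq start (dashed line), with boxes above the line on the strand of the gene and below it on the opposite strand. The E2F motifs of E2F1, E2F2, E2F3 and RBL1 all began 53 to 16 bases before the start, and the other windows held none. The CHR motif is TTTGAA and the GATA motif is AGATAA or TGATAA.

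The map also shows the CHR element TTTGAA, which the MuvB complex binds, and the GATA motif. TTTGAA stood in the first windows of E2F3 and RBL2, against 15.2% of all windows. A GATA motif stood in the windows of RB1 and RBL1 and in the second window of RBL2, against 16.3% of all windows. The RefSeq starts of the RB1 window and the second RBL2 window lie 172706 and 1642 bases downstream of the annotated gene starts. Of the tested genes with a GATA motif 41.0% fell, and of those without 41.4% fell.

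To investigate the family after LDB1 knockdown, the groups were compared by limma on log2(FPKM + 1), over all 13300 genes, with Benjamini-Hochberg adjusted p-values. At an adjusted p-value below 0.05, 7 of the 10 members fell, 2 rose and 1 did not pass. Among all genes tested, 37.4% fell and 29.9% rose by the same rule. With libraries scaled to total recovered reads, 32.7% of all genes tested fell and 34.3% rose. By the median of ratios 33.3% fell and 33.8% rose. The median log2 fold change of the members was -0.48 and that of all genes tested was -0.08. For 9 of the 10 members both sh-LDB1 libraries lay on the same side of both sh-NC libraries, and the same held for 84.6% of all genes tested. E2F5 passed the filter of a mean of 1 FPKM through its sh-NC libraries alone. With a fold change below 0.5 also required, 1 member passed, E2F2, against 10.3% of all genes tested that were lower by this rule. With a pseudocount of 0.1 in place of 1, 3 members passed, E2F2, E2F5 and E2F8, and E2F8 brought the count to 2 without sh-NC replicate 1 or sh-LDB1 replicate 1. By limma 0 members rose past a fold change of 2, also at an unadjusted p below 0.05, against 9.5% of all genes tested. The count that rose was 1 without sh-NC replicate 1, without sh-NC replicate 2 or without sh-LDB1 replicate 2, since E2F7 was lost. The added 1 makes fold changes of low genes look smaller than they were, and an exact permutation test of 2 against 2 libraries cannot go below 0.33.

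**Figure D2:**
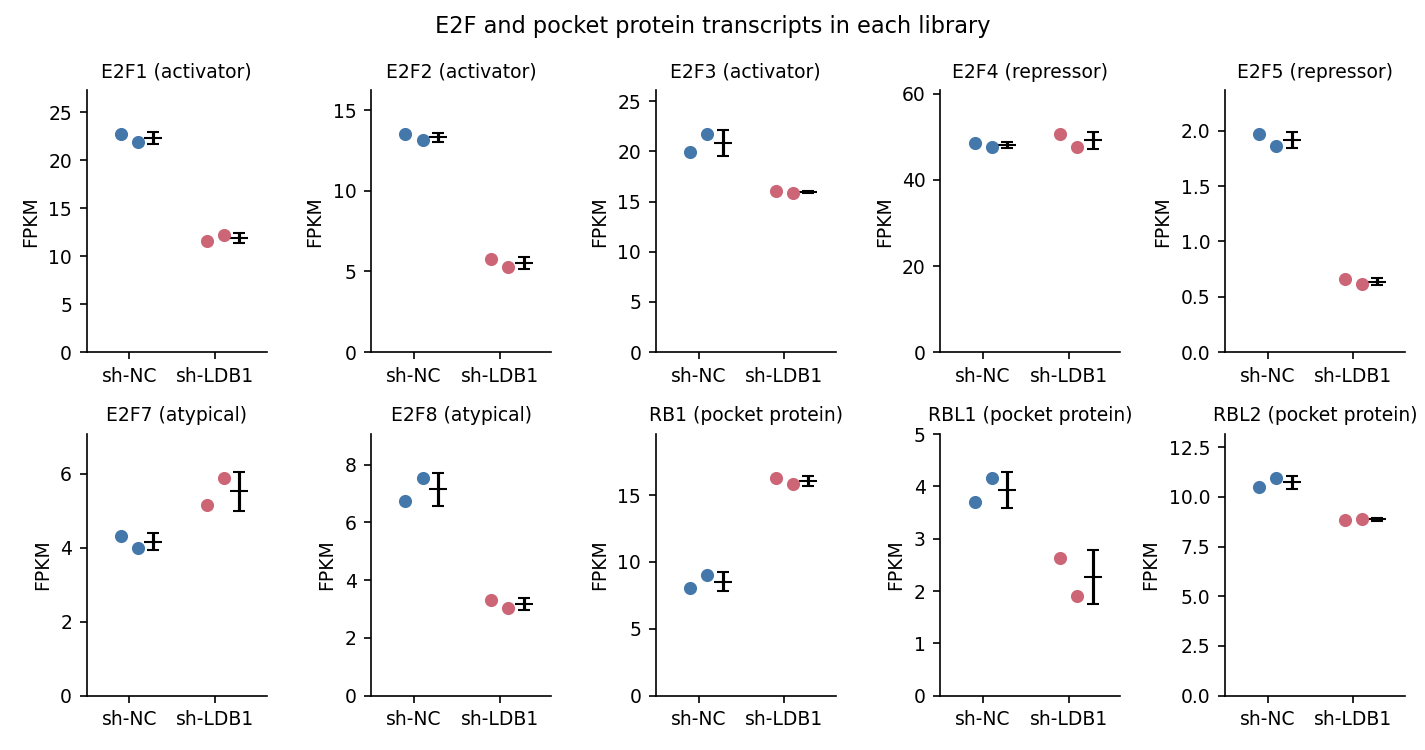
FPKM of the 10 members in each library (points), with the mean and SD of each group (n = 2, black), on axes that start at 0. The groups overlap only for E2F4, RB1 and E2F7 are higher in sh-LDB1, and the other 7 are lower.

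The activator E2Fs all fell, and E2F2 fell most. E2F2 (ENSG00000007968, chr1:23506438-23531233, minus strand of GRCh38 in GENCODE release 44) was at 13.5 and 13.1 FPKM with sh-NC, against 5.80 and 5.27 FPKM with sh-LDB1. Both sh-LDB1 libraries were lower than both sh-NC libraries, and the mean was 2.41-fold lower. The log2 fold change was -1.13 (SE 0.06, adjusted p = 0.00026 by limma). E2F1 (ENSG00000101412, chr20:33675477-33686385, minus strand), the founding member and a strong activator of S-phase genes, was at 22.7 and 21.9 FPKM in sh-NC. In sh-LDB1 it was at 11.5 and 12.2 FPKM, 1.88-fold lower and without overlap. Its log2 fold change was -0.85 (SE 0.05, adjusted p = 0.000327 by limma). E2F3 (ENSG00000112242, chr6:20401879-20493714, plus strand), which is made in a long and a short form from separate starts, was at 19.96 and 21.7 FPKM with sh-NC, against 16.0 and 15.9 FPKM with sh-LDB1. The fall of E2F3 was smaller than that of the other activators, to 76.6% of the sh-NC mean, with a log2 fold change of -0.36 (95% interval -0.52 to -0.21, adjusted p = 0.00523 by limma). The intervals of E2F1 and E2F2, -0.996 to -0.712 and -1.305 to -0.961, lay below that of E2F3. The gene-level values do not separate the long and short forms of E2F3.

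E2F4 and E2F5, the E2Fs that repress with pocket proteins, differed from each other. E2F4 (ENSG00000205250, chr16:67192155-67198918, plus strand) was the most abundant member, at 48.6 and 47.7 FPKM with sh-NC, against 50.7 and 47.7 FPKM with sh-LDB1. The groups overlapped, and the log2 fold change was 0.03 (95% interval -0.10 to 0.16, adjusted p = 0.622 by limma). E2F5 (ENSG00000133740) was the least abundant member, at 1.97 and 1.86 FPKM with sh-NC, against 0.663 and 0.613 FPKM with sh-LDB1. These values rested on 163 to 189 reads with sh-NC and 55 to 63 reads with sh-LDB1. On the FPKM scale E2F5 was 3.004-fold lower, while its log2 fold change was -0.83 on the log2(FPKM + 1) scale (SE 0.12, adjusted p = 0.00429 by limma). Both sh-LDB1 libraries were under the filter of 1 FPKM, so E2F5 was tested only through its level with sh-NC, and with no filter on low values its adjusted p was 0.0139 by limma. The 3′ end of E2F5 overlaps the gene RBIS on the opposite strand, which was at 5.70 and 5.80 FPKM with sh-NC, against 5.24 and 6.05 FPKM with sh-LDB1. Whether the counting used strand is not given in the sources used here, so reads of the overlap cannot be told apart.

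The atypical repressors moved in opposite directions. E2F8 (ENSG00000129173, chr11:19224063-19241620, minus strand) was at 6.75 and 7.55 FPKM with sh-NC, against 3.32 and 3.03 FPKM with sh-LDB1, 2.25-fold lower. Its log2 fold change was -0.96 (SE 0.08, adjusted p = 0.000777 by limma). E2F7 (ENSG00000165891, chr12:77021248-77065569, minus strand) was at 4.32 and 4.002 FPKM with sh-NC, against 5.15 and 5.89 FPKM with sh-LDB1, 1.33-fold higher and without overlap. The log2 fold change of E2F7 was 0.34 (95% interval 0.10 to 0.57, adjusted p = 0.0244 by limma). It was 0.38 (adjusted p 0.0574) without sh-NC replicate 1, 0.29 (adjusted p 0.102) without sh-NC replicate 2 and 0.25 (adjusted p 0.125) without sh-LDB1 replicate 2. The ratio of E2F7 to E2F8 was 0.641 and 0.53 with sh-NC, against 1.55 and 1.94 with sh-LDB1, so the order of the pair was exchanged. This ratio is taken within a library and does not depend on how libraries are scaled.

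The pocket proteins also moved apart. RB1 (ENSG00000139687, chr13:48303744-48599436, plus strand), the retinoblastoma tumor suppressor, was at 8.02 and 9.02 FPKM with sh-NC, against 16.3 and 15.8 FPKM with sh-LDB1. The mean was 1.89-fold higher and the groups were far apart relative to their spread. The log2 fold change was 0.84 (SE 0.07, adjusted p = 0.000702 by limma), and it was the larger of the 2 rises in the family. RBL1 (ENSG00000080839, chr20:36996349-37095997, minus strand), which is itself known as an E2F-regulated gene of cycling cells, was at 3.69 and 4.17 FPKM with sh-NC, against 2.63 and 1.90 FPKM with sh-LDB1. Its log2 fold change was -0.60 (95% interval -0.98 to -0.23, adjusted p = 0.0176 by limma), and the sh-LDB1 libraries differed more from each other than did the sh-NC libraries. Without sh-LDB1 replicate 2, the lower of the pair, the value was -0.44 with an adjusted p of 0.0556 by limma, and without sh-NC replicate 1 or 2 the adjusted p was 0.0518 or 0.0878. RBL2 (ENSG00000103479, chr16:53433977-53491648, plus strand), the pocket protein known from resting cells, was at 10.5 and 10.97 FPKM with sh-NC, against 8.83 and 8.90 FPKM with sh-LDB1. The log2 fold change of RBL2 was -0.25 (SE 0.05, adjusted p = 0.0123 by limma), and with libraries scaled to total recovered reads it was -0.14 with an adjusted p of 0.06. Without sh-LDB1 replicate 1 or 2 the adjusted p of RBL2 was 0.0778 or 0.0716 by limma.

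**Figure D3:**
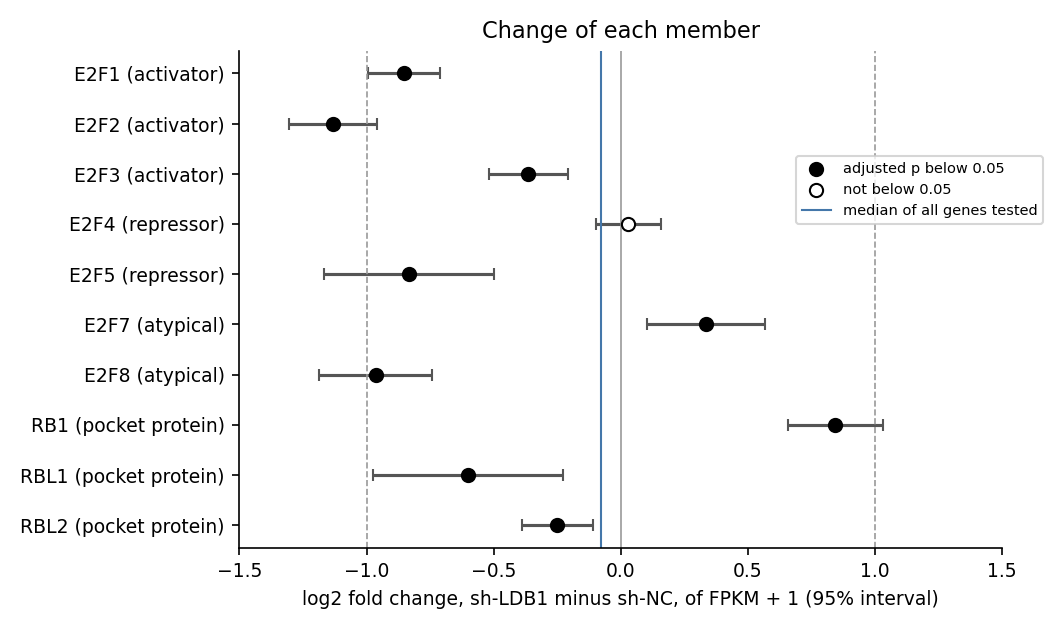
Log2 fold change of each member on the log2(FPKM + 1) scale, sh-LDB1 minus sh-NC, with its 95% interval, beside 0 (grey), a fold change of 2 either way (dashed) and the median of all genes tested, -0.08 (blue). Filled points have an adjusted p below 0.05, and E2F4, at 0.03, is the open point.

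Several genes share bases with a member or resemble one. RB1 spans RCBTB2 on the opposite strand, at 0.924 and 1.17 FPKM with sh-NC, against 1.44 and 1.45 FPKM with sh-LDB1, and LPAR6, at 0.076 to 0.128 FPKM. The end of RBL2 overlaps AKTIP on the opposite strand, at 1.32 and 1.09 FPKM with sh-NC, against 2.66 and 2.69 FPKM with sh-LDB1. RBL1 spans the pseudogene RPS3AP3 on its own strand, at 1.28 and 1.12 FPKM with sh-NC, against 0.258 and 0 FPKM with sh-LDB1. The overlapping genes of RB1 were low next to RB1 itself, while AKTIP was higher in both sh-LDB1 libraries and lay below RBL2 in all 4. E2F3-IT1, inside E2F3, lay between 0.468 and 1.32 FPKM, and the processed pseudogenes E2F3P1 and E2F3P2 lay between 0 and 0.484 FPKM. The values of the other overlapping genes were between 0 and 1.77 FPKM.

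The order of the levels changed below E2F4. In sh-NC the order of the mean FPKM was E2F4, E2F1, E2F3, E2F2, RBL2, RB1, E2F8, E2F7, RBL1 and E2F5. Among neighbours in this order only E2F7 and RBL1 had overlapping libraries, with means of 4.16 ± 0.227 and 3.93 ± 0.335 FPKM (SD, n = 2). In sh-LDB1 the order was E2F4, RB1, E2F3, E2F1, RBL2, E2F2, E2F7, E2F8, RBL1 and E2F5. RB1 moved from the 6th to the 2nd place and was within the spread of E2F3, at 16.1 ± 0.35 and 16.0 ± 0.0848 FPKM. E2F2 moved from the 4th to the 6th place and was within the spread of E2F7, at 5.53 ± 0.375 and 5.52 ± 0.525 FPKM.

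The classes were then summed within each library, with no test. The activators E2F1, E2F2 and E2F3 summed to 56.2 and 56.7 FPKM with sh-NC, against 33.4 FPKM in both sh-LDB1 libraries, a ratio of 0.591. The sum of E2F4 and E2F5, nearly all of it E2F4, was 50.6 and 49.6 FPKM in sh-NC and 51.3 and 48.4 FPKM with sh-LDB1, a ratio of 0.995 that became 1.08 with libraries scaled to total recovered reads and 1.07 by the median of ratios. The activators were thus above the E2F4 and E2F5 sum in sh-NC and below it in sh-LDB1. The atypical pair summed to 11.1 and 11.6 FPKM with sh-NC, against 8.47 and 8.93 FPKM with sh-LDB1.

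The 3 pocket proteins summed to 22.2 and 24.2 FPKM with sh-NC, against 27.8 and 26.6 FPKM with sh-LDB1. RB1 made up 36.7% ± 0.87 of this sum in sh-NC and 59.1% ± 0.482 in sh-LDB1 (SD, n = 2). The share of RBL2 was 46.3% ± 1.31 in sh-NC and 32.6% ± 1.18 in sh-LDB1, so the most abundant pocket protein transcript was RBL2 in sh-NC and RB1 in sh-LDB1. The share of RBL1 was 16.9% ± 0.437 and 8.30% ± 1.66. The summed activators were 7.01 and 6.29 times the RB1 level in the sh-NC libraries and 2.05 and 2.11 times it in the sh-LDB1 libraries. E2F1 alone was 2.83 and 2.42 times RB1 with sh-NC and 0.708 and 0.773 times it with sh-LDB1. These are ratios of transcript levels and not of proteins, whose phosphorylation was not measured.

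**Figure D4:**
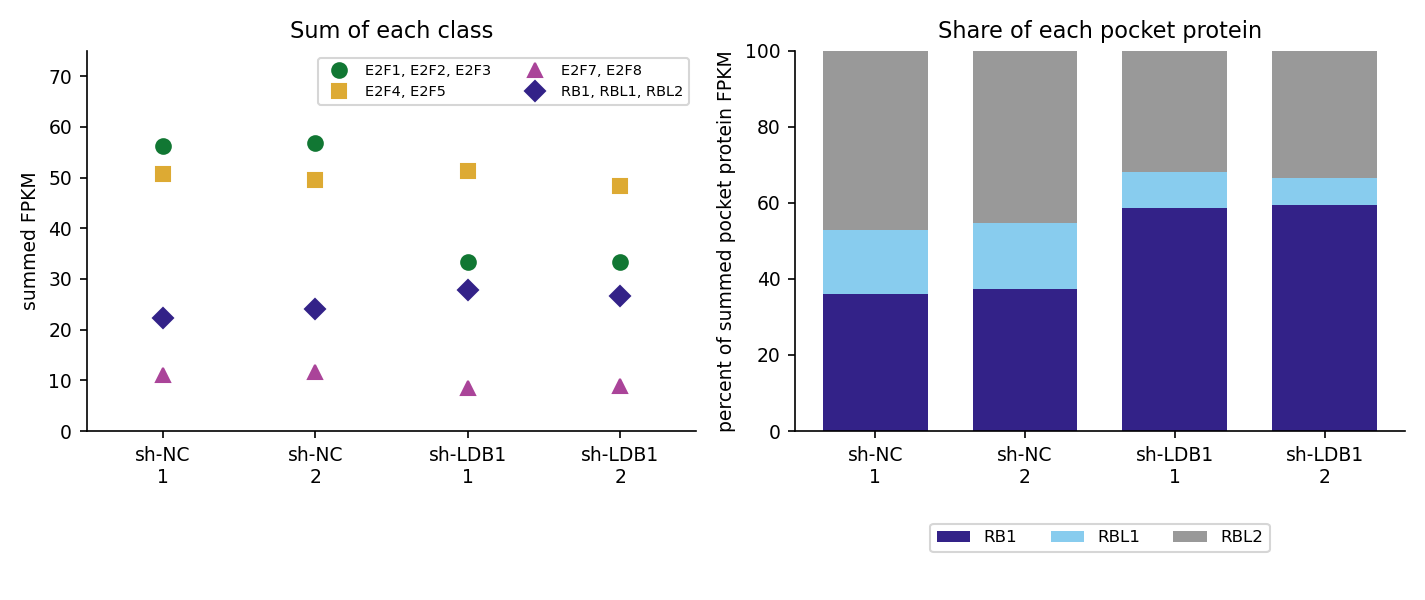
Left, summed FPKM of each class in each library, with circles for the activators, squares for E2F4 and E2F5, triangles for E2F7 and E2F8 and diamonds for the pocket proteins. Right, percent of the summed pocket protein FPKM from RB1, RBL1 and RBL2 in each library, where the RB1 share is 36.1% and 37.3% with sh-NC, against 58.7% and 59.4% with sh-LDB1.

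The other genes of the pathway were counted from lists. These were written from textbook knowledge with earlier results of these data known, so their counts are not independent of the data. Of the 10 DP partners, E2F6 and MuvB subunits listed, 8 were tested, 7 fell and 0 rose, against 37.4% of all genes tested that fell and 29.9% that rose. By limma 0 also rose at an unadjusted p below 0.05, and 0 rose by voom on recovered reads. Their median log2 fold change was -1.05. The count that fell was 6 with a pseudocount of 0.01, with no filter and with a mean of at least 5 FPKM. It was also 6 with total recovered reads, with the median of ratios and with a replicate block. TFDP1, the main DP partner, was at 53.0 ± 1.17 FPKM with sh-NC, against 21.6 ± 0.0731 FPKM with sh-LDB1 (SD, n = 2), with a log2 fold change of -1.25. MYBL2, which joins MuvB in S phase, was 2.76-fold lower, and RBBP4, a histone chaperone of the MuvB core, was 2.52-fold lower. LIN37 was under the filter, at 0.482 and 0.553 FPKM with sh-NC, against 1.11 and 0.914 FPKM with sh-LDB1, and TFDP3 was not analysed here. The sum of TFDP1 and TFDP2 was 65.2 and 67.8 FPKM with sh-NC, against 28.6 and 28.7 FPKM with sh-LDB1. The DP sum was 0.553 and 0.576 times the summed E2F members with sh-NC and 0.307 and 0.316 times them with sh-LDB1. The summed members include E2F7 and E2F8, which act without a DP partner, and leave out E2F6.

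The cyclins, kinases and phosphatases that act on pocket proteins were 11 genes, of which 8 fell and 2 rose (37.4% and 29.9% of all genes tested), with a median log2 fold change of -0.60. Cyclin D1 (CCND1) was at 20.1 ± 1.02 FPKM with sh-NC, against 6.64 ± 0.296 FPKM with sh-LDB1, cyclin E1 (CCNE1) was 3.43-fold lower and CDK2, its kinase, was 2.48-fold lower. The D cyclins differed, since CCND3, the most abundant of them, rose from 56.6 ± 2.61 to 79.0 ± 1.2 FPKM (SD, n = 2). PPP1CB, a catalytic subunit of the phosphatase that removes phosphates from RB1, rose 1.84-fold. All 5 CDK inhibitors on the list rose, against 29.9% of all genes tested, with a median log2 fold change of 0.71. The list did not hold every CDK inhibitor, and CDKN2A and CDKN2B were not on it. CDKN1A (p21) rose from 3.60 ± 0.536 to 30.9 ± 0.189 FPKM, CDKN1B (p27) from 14.1 ± 0.213 to 39.5 ± 1.73 FPKM and CDKN1C (p57) from 18.3 ± 0.163 to 30.6 ± 0.394 FPKM (SD, n = 2).

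Of 13 chromatin proteins that pocket proteins bind, 7 fell and 2 rose, against 37.4% and 29.9% of all genes tested, with a median log2 fold change of -0.38. RBBP8, a DNA end resection factor that binds RB1, was 3.75-fold lower. RBBP7, a histone chaperone, was 2.31-fold lower and the deacetylase HDAC3 was 1.86-fold lower. SIN3B, a corepressor scaffold of resting cells, rose from 9.97 ± 0.247 to 19.9 ± 0.304 FPKM (SD, n = 2), and the demethylase KDM5A rose 1.25-fold with a log2 fold change of 0.26 (adjusted p = 0.0332 by limma). Without sh-NC replicate 1, or without sh-LDB1 replicate 1 or 2, the count that rose was 1, since KDM5A did not pass.

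The textbook E2F target genes were 40 genes of replication, nucleotide synthesis and S phase, of which 39 were tested. All 39 fell, against 37.4% of all genes tested, and 28 of them fell past a fold change of 0.5, against 10.3%. The median log2 fold change was -1.25 and the range was -2.58 to -0.54. CDC45, a subunit of the replicative helicase, was at 114 ± 1.46 FPKM with sh-NC, against 25.6 ± 0.355 FPKM with sh-LDB1 (SD, n = 2). The helicase subunits MCM4 and MCM3 were 3.95-fold and 3.23-fold lower. Of the 35 target genes with a promoter window, 20 held an E2F motif, against 6.92% of the 8399 tested genes with a window.

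**Figure D5:**
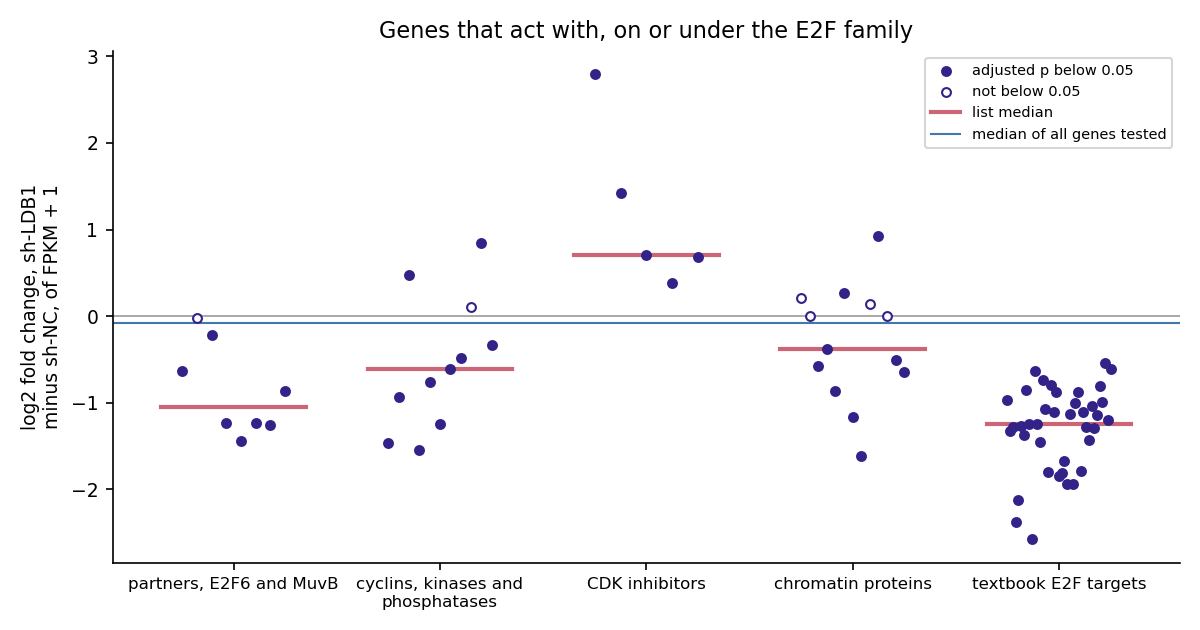
Log2 fold change on the log2(FPKM + 1) scale, sh-LDB1 minus sh-NC, of each tested gene of 5 lists (points), with the list median (red) and the median of all genes tested, -0.08 (blue). All tested target genes lie below 0, at -2.58 to -0.54, and all listed CDK inhibitors lie above 0, at 0.39 to 2.80.

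The genes whose values over the 4 libraries were most like those of E2F2 were GOLGA8B, FZD5, PTMAP5, CCDC58 and ZNF761. Likeness was the root mean square distance between deviations from the gene mean on the log2(FPKM + 1) scale, which was 0.00459 to 0.0238. With 4 libraries in 2 groups, this measure mainly picks genes of a like fold change. GOLGA8B and PTMAP5 have near-identical copies elsewhere in the genome, so their reads are uncertain.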

How the data were processed

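RNA-seq of 2 sh-NC and 2 sh-LDB1 libraries was analysed, grouped by the titles in the labels. Per the labels, libraries were built from total RNA (Illumina TruSeq), and the processing notes of the submitters name HISAT2 2.0.5 and hg38. The authors mapped filtered reads with HISAT and deposited 1 table of FPKM per gene and library, with replicates not pooled. The counting tool, annotation and use of strand are not given in the sources used here. The deposited table held 28412 genes, and 0 columns belonged to no sample.

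The members, lists and tests were chosen with earlier results of these data known. The lists hold partners, kinases, CDK inhibitors, chromatin proteins, textbook targets and the markers of the labelled and of the erythroid cell type. The test covered the 13300 genes whose mean over all 4 libraries reached 1 FPKM. Values were taken as log2(FPKM + 1) and compared with limma 3.58.1 in R 4.3.3 (eBayes with a trend, no replicate block), with Benjamini-Hochberg adjustment over all genes tested. The fold-change threshold of 2 or 0.5 follows the methods of the study. Whole reads were recovered from the FPKM within 0.001 read. For 47.5% of genes the gene length of GENCODE release 44 on GRCh38 gave whole reads. For the other genes, every member among them, a different whole-number length that gave whole reads was used. On simulated data with 200 changed genes among 13300, 177 of the 200 were called in the right direction, and 9 unchanged genes were called. The share of false calls among the genes called in the real libraries was not tested.

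Named were LDB1, every member, from each pathway list the 3 genes with the smallest adjusted p-value in each direction and those under the filter, the 5 genes most like E2F2, and genes that overlap a member or are its pseudogenes. The target gene under the filter is not reported here. Marker genes are named from the marker lists, and some were chosen after their values were seen. Promoter windows were read from a RefSeq table on GRCh38.p14. Same-numbered libraries did not deviate together (correlation of deviations 0.0196), so the numbers do not pair the libraries. The alternatives were pseudocounts of 0.1 and 0.01, no filter, a mean of at least 5 FPKM, scaling to total recovered reads or by the median of ratios, a replicate block, leaving out each library, eBayes without a trend, voom on recovered reads and limma treat. The remaining steps used Python 3.11.15, numpy 2.4.6, pandas 2.3.3 and matplotlib 3.10.9.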

Additional observations from a re-analysis of the deposited data

How the results depend on the processing

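Among the 13 alternatives for each gene, or 12 where a gene fell under the stricter filter, E2F1, E2F2, E2F3, E2F8 and RB1 kept their direction and an adjusted p below 0.05 by limma in every one. E2F5 did so in the 12 that tested it, but it passed the filter through its sh-NC libraries alone. E2F4 was -0.013 without sh-LDB1 replicate 1, opposite in sign to its value with all libraries, and up to 0.071 with another library left out. The cause of the change in sign was not tested. With total recovered reads E2F4 was 0.14 (adjusted p 0.0506 by limma), and with the median of ratios it was 0.13 (adjusted p 0.0685 by limma). It was not past the threshold under any alternative, but came near it under these 2 scalings. E2F7 and RBL1 each lost the call without a filter (adjusted p 0.0609 and 0.0545), and without sh-NC replicate 1 (0.0574 and 0.0518), sh-NC replicate 2 (0.102 and 0.0878) or sh-LDB1 replicate 2. RBL2 lost it with total recovered reads and without sh-LDB1 replicate 1 or 2 (0.0778 and 0.0716). Leaving out a library left a lone sample assumed to vary like the other group. The count of members lower was 5 to 7 over all alternatives. The count of members higher was 1 without a filter and 1 with a mean of at least 5 FPKM, where E2F7 was not tested, and was 1 to 2 with each library left out. The count past the fold-change threshold was 3 with a pseudocount of 0.1, 3 with 0.01 and 3 with voom (E2F2, E2F5 and E2F8), 0 with limma treat, and 1 to 2 with a library left out. With a replicate block, 7 members were lower, 2 higher and 1 past the fold-change threshold. The chromatin proteins that rose numbered 1 without a filter, 1 with a mean of at least 5 FPKM, 1 with the replicate block, and 1 to 2 with a library left out. The block moved no other count by more than 1.5 times. With total recovered reads and with the median of ratios, the sh-LDB1 to sh-NC ratios were 0.641 and 0.634 for the activators, 1.08 and 1.07 for E2F4 with E2F5, 0.833 and 0.824 for E2F7 with E2F8, 1.27 and 1.26 for the pocket proteins, and 0.845 and 0.836 for all E2F members, since these scalings raised the median log2 fold change of all genes by 0.10 and 0.09. The depth behind E2F5, 55 to 189 reads per library, and the 2 libraries per group limit the precision.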
